A study of Mus musculus with 6 samples.

Results

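In the superior duodenum, where the small intestine begins, short RNAs of 3 heterozygous Polr3B male mice and of 3 wild-type males were sequenced, and 6 transfer RNAs (tRNAs) of the mitochondrial genome were examined: mt-Tf, mt-Tv, mt-Tl1, mt-Ti, mt-Tm and mt-Tw. They are the tRNA genes that lie on the plus strand before mt-Co1, around the ribosomal RNA genes and the genes mt-Nd1 and mt-Nd2, and they make up 6 of the 22 mitochondrial tRNAs and of the 1630 transcripts in the table. All 6 were found in the table by their Ensembl identifiers, and all 6 had enough counts to be tested.

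Mitochondrial tRNAs are not made by RNA polymerase III, the enzyme of which Polr3B encodes a subunit. A separate, phage-like polymerase copies the mitochondrial genome into long precursors that carry ribosomal RNAs, mRNAs and tRNAs in a row, and nucleases release the messages by cutting at both ends of each tRNA, after which the sequence CCA is added to the 3' end. The 22 tRNAs together decode the proteins of the respiratory chain that mitochondria make themselves, and in the intestine these proteins serve the energy supply of a rapidly renewing epithelium.

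The heterozygous males, written here as Polr3B-/+, are C57BL/6N mice with 1 copy of the allele Polr3b em7(IMPC)Tcp, in which an insertion made with Cas9 nickase is predicted to shift the reading frame. The allele is present in every cell of the animal and 1 normal copy of the gene remains. The wild-type males are C57Bl/6N and were bred from parents without the allele, so the genotypes come from different matings. All mice were fasted overnight before the tissue was taken, and their age is not given in the sources used here. Each library was taken as a separate mouse, as its label gives it, and the column names do not say which heterozygous animal is which. RNA of less than 200 nucleotides was selected, treated to remove base methylation and sequenced, and reads were assigned by the authors with Salmon to transcripts, of which those shorter than 300 bases were deposited as estimated counts.

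The sequences of the 6 tRNA genes are shown because tRNAs that resemble each other could exchange reads in such an assignment. The sequences are the GENCODE M21 transcripts with the same identifiers as in the table, written 5' to 3' as DNA, without the added CCA, and the capitals mark the anticodon. The anticodon of each tRNA was given beforehand and located in the sequence, not inferred from the fold. It had to be the middle triplet of a 7-base loop, directly after a C or T. Of the 5 base pairs in the stem that closes the loop, at least 3 had to form.
mt-Tf: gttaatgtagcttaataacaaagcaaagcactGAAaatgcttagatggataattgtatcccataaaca
mt-Tv: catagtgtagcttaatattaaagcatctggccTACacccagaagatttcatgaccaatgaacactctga
mt-Tl1: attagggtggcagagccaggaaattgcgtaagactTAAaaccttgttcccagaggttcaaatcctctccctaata
mt-Ti: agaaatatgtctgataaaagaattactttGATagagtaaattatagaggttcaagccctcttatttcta
mt-Tm: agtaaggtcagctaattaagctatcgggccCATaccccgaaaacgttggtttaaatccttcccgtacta
mt-Tw: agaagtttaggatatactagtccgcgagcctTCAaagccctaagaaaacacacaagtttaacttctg

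The 6 genes have between 67 and 75 bases. Their GC content runs from 27.5% in mt-Ti to 44.9% in mt-Tm, and that of the other 16 mitochondrial tRNAs from 17.1% to 44.8%. The longest run that any pair of the 6 shares is the 12 bases tgtagcttaata, near the 5' end of mt-Tf and of mt-Tv, and the next is the 10 bases agaggttcaa of mt-Tl1 and mt-Ti. A blastn search of the GENCODE M21 transcripts found no second copy of mt-Tf, mt-Tv, mt-Ti, mt-Tm or mt-Tw. For mt-Tl1 it found a stretch of 59 bases with 94.9% identity in antisense orientation within a transcript of Cep295, which is not among the transcripts of the table. Across the 22 mitochondrial tRNAs, which share the same 6 libraries, GC content and level per base had a Pearson r of -0.12.

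The genes stand close together on the mitochondrial chromosome, with coordinates given here for GRCm38. The tRNA for phenylalanine, mt-Tf, is the first gene, from 1 to 68, and is followed after 1 base by the small ribosomal RNA mt-Rnr1. Next come mt-Tv, for valine, from 1025 to 1093, and mt-Tl1, for the leucine codons UUA and UUG, from 2676 to 2750. The large ribosomal RNA mt-Rnr2 fills the space between mt-Tv and mt-Tl1 without a gap on either side. The tRNA for isoleucine, mt-Ti, runs from 3706 to 3774 and overlaps the end of mt-Nd1 by 2 bases and the opposite-strand gene mt-Tq by 3 bases. The tRNA for methionine, mt-Tm, lies from 3845 to 3913, directly before mt-Nd2, and that for tryptophan, mt-Tw, from 4950 to 5016, where it overlaps the end of mt-Nd2 by 2 bases. Whether the counting used strand is not given in the sources used here, so reads from the few overlapping bases cannot be told apart.

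The counts per mouse summed to between 2114055 and 6037849 over the short transcripts. The 22 mitochondrial tRNAs held 12%, 8.54% and 7.11% of them in Polr3B-/+ males 1, 2 and 3, and 9.55%, 28.8% and 19.5% in wild-type males 1, 2 and 3. Wild-type males 2 and 3 thus stood above the other 4 mice, and wild-type male 1, the smallest library, lay among the Polr3B-/+ males. A single transcript that GENCODE M21 does not name, ENSMUST00000240338.1, held 16.7%, 45.1% and 47.1% of the counts in the mutants and 47.7%, 28.5% and 20.7% in the wild type. Its part in the results was not tested on its own. It is the most abundant transcript, and 1 of the alternative scalings below leaves out the top 10 from the totals. Of 5 microRNA precursors chosen as markers of intestinal epithelium, all were in the table at low counts, with sums of 5.0 to 10.8 CPM (counts on a per-million scale of the library total) in the mutants and 2.84 to 13.6 in the wild type. Mir192 alone among them had enough counts to be tested. The sums were 0.7 to 1.92 and 0.946 to 4.61 CPM for 2 smooth muscle precursors, 0.35 to 2.16 and 0 to 3.51 for 2 of 3 blood cell precursors, and 0 to 2.08 and 0 to 0.439 for Mir375, the 1 of 4 pancreas precursors found. The liver precursor Mir122 was not among the named transcripts. The markers' part in the results was not tested.

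The question put to the 6 tRNAs was whether their levels differ between Polr3B-/+ and wild-type males. All 6 had a lower mean level in Polr3B-/+ males, with means between 32.7% and 64.1% of the wild-type means, and none passed 10% FDR. Levels are CPM after TMM scaling, which sets the libraries against each other by their bulk of transcripts. Each tRNA was tested with edgeR (quasi-likelihood), and its p was adjusted by Benjamini-Hochberg over all 560 tested transcripts. With edgeR, 0 of the 6 passed 10% FDR, against 0% of all tested transcripts, and with DESeq2 and limma the number was also 0. An unadjusted p under 0.05 was found for 3 of the 6, mt-Tf, mt-Tm and mt-Tw, where 3.04% of all tested transcripts were lower with such a p and 3.57% had one in either direction. DESeq2 and limma each gave 3 of the 6 as well. The share of all tested transcripts that were lower with such a p was 1.96% with limma. With DESeq2 it was 1.18% over 1614 transcripts and 3.59% over the 557 that passed edgeR's count filter. Every Polr3B-/+ male was below every wild-type male for 2 of the 6, mt-Tm and mt-Tw, as for 4.11% of all tested transcripts. Less tRNA per cell and fewer cells that are rich in mitochondria cannot be told apart in whole tissue.

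The median log2 fold change of the 6 was -1.0, and their values ran from -1.61 to -0.64. Over all 560 tested transcripts the median was -0.05, with 55.4% lower in the mutant. When libraries were scaled by their totals alone, the median of all transcripts moved to 0.14 and that of the 6 tRNAs to -0.78. The distance between them was -0.94 with TMM and -0.92 with totals. A change of scaling moves all transcripts by nearly the same amount, so this distance could hardly differ and is no test of the change. The separation of the groups did depend on the scaling, since with totals alone 0 of the 6 tRNAs had every Polr3B-/+ male below every wild-type male. With all 6 mice and totals alone, 0 of the 6 had an unadjusted p under 0.05.

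**Figure D1:**
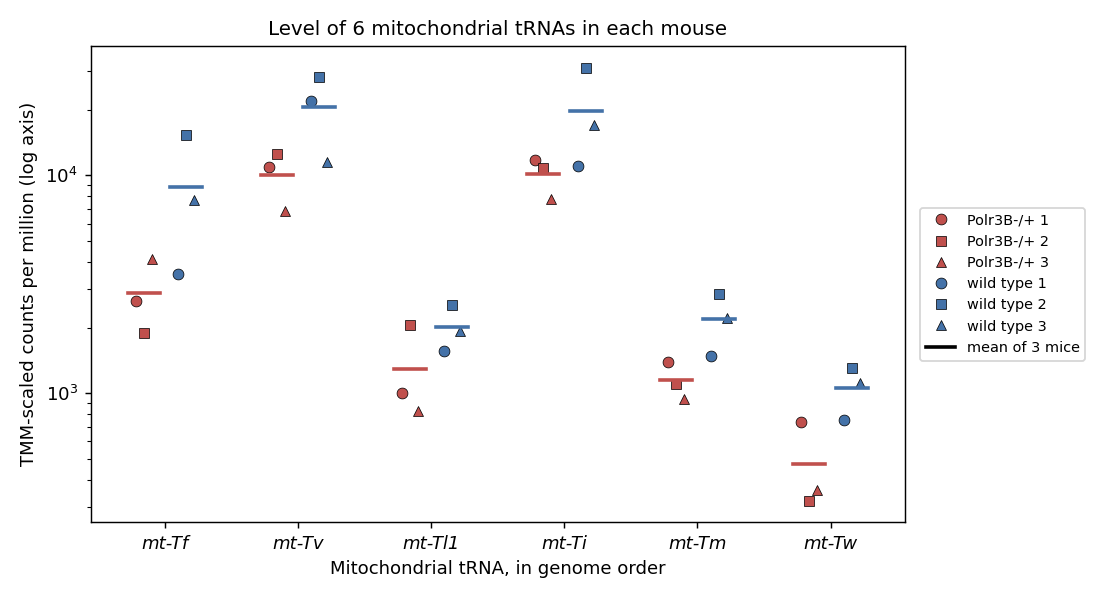
Level of each of the 6 tRNAs in each mouse, in TMM-scaled CPM on a log axis. Red points are the 3 Polr3B-/+ males, blue points the 3 wild-type males, and bars the mean of each group. Wild-type male 2 is the highest of the 6 mice for every tRNA, and the groups are apart for mt-Tm and mt-Tw.

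The 3 tRNAs that flank the ribosomal RNAs differed from each other in how the mice were ordered. mt-Tf, which carries phenylalanine and opens the plus-strand transcript next to the control region, was measured at 2661, 1897 and 4113 CPM in Polr3B-/+ males 1, 2 and 3, and at 3513, 15305 and 7707 CPM in wild-type males 1, 2 and 3. Polr3B-/+ male 3 was above wild-type male 1, so the groups overlapped. The means were 2890 ± 1126 and 8842 ± 5977 CPM (SD, n = 3 each), and the wild-type mice alone differed 4.36-fold. The log2 fold change of -1.61 (standard error 0.60, 95% confidence interval -3.03 to -0.19) was the largest of the 6 in size, and edgeR's p was 0.0313 before and 0.999 after adjustment. Without wild-type male 2 it was -0.96, and without wild-type male 1 it was -2.0.

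For mt-Tv, the valine tRNA between the ribosomal RNAs, 10895, 12500 and 6840 CPM were found in the mutants and 21886, 28197 and 11493 CPM in the wild type. Here wild-type male 1 was high and wild-type male 3 lay below Polr3B-/+ male 2, the reverse of their order for mt-Tf. The means were 10078 ± 2917 and 20525 ± 8435 CPM (SD, n = 3 each). On the log2 scale the mutants differed by -1.03 (standard error 0.47, 95% confidence interval -2.14 to 0.08, adjusted p = 0.999 from edgeR). Leaving out each mouse in turn gave -1.31 to -0.73, the smallest change without wild-type male 2.

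The smallest change was that of mt-Tl1, a leucine tRNA whose gene also holds the binding site of the mitochondrial transcription termination factor. It had 1002, 2048 and 829 CPM in the mutants and 1568, 2543 and 1936 CPM in the wild type, with Polr3B-/+ male 2 above 2 of the 3 wild-type males. The means were 1293 ± 660 and 2016 ± 492 CPM (SD, n = 3 each), and edgeR's estimate on the log2 scale was -0.64 (standard error 0.44, 95% confidence interval -1.68 to 0.40, adjusted p = 0.999 from edgeR). A single mutant moved this value by most: it was -1.14 without Polr3B-/+ male 2 and -0.39 without Polr3B-/+ male 3.

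Of the 3 tRNAs around mt-Nd1 and mt-Nd2, the isoleucine tRNA mt-Ti was measured at 11705, 10845 and 7759 CPM in Polr3B-/+ males and at 11027, 31257 and 16971 CPM in wild-type males. Wild-type male 1 was below Polr3B-/+ male 1, so only wild-type males 2 and 3 exceeded all mutants. With means of 10103 ± 2075 and 19752 ± 10398 CPM (SD, n = 3 each), mt-Ti had an estimated log2 difference of -0.97 (standard error 0.48, 95% confidence interval -2.10 to 0.17, adjusted p = 0.999 from edgeR). Without wild-type male 2 it was -0.47.

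The methionine tRNA mt-Tm, which serves both initiation and elongation in mitochondria, had 1396, 1106 and 944 CPM in the mutants and 1488, 2841 and 2209 CPM in the wild type. The highest mutant and the lowest wild-type male were close together, and the groups did not overlap. The means were 1149 ± 229 and 2180 ± 677 CPM (SD, n = 3 each). edgeR's log2 estimate was -0.92 (standard error 0.36, 95% confidence interval -1.79 to -0.06), and its p was 0.0389, or 0.999 once adjusted. An exact two-sided permutation test over the 6 mice gave p = 0.1, the smallest that 3 mice against 3 allow. Scaled by totals alone, Polr3B-/+ male 1 had 1743 CPM and wild-type male 1 had 1266 CPM, so that the groups overlapped.

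The least abundant of the 6, mt-Tw, inserts tryptophan and in mitochondria also reads the codon UGA. Its levels were 734, 321 and 360 CPM in Polr3B-/+ males and 752, 1304 and 1112 CPM in wild-type males. As for mt-Tm, the groups did not overlap, and Polr3B-/+ male 1 and wild-type male 1 were nearly equal. The means were 472 ± 228 and 1056 ± 280 CPM (SD, n = 3 each), which edgeR estimated as a log2 difference of -1.16 (standard error 0.43, 95% confidence interval -2.18 to -0.15). The unadjusted p was 0.0305 and the adjusted p 0.999 from edgeR, and the exact two-sided permutation test gave p = 0.1. Leaving out Polr3B-/+ male 1 gave -1.63 and leaving out Polr3B-/+ male 2 gave -0.95. The lowest count behind these values was 632, in Polr3B-/+ male 2.

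Exact two-sided permutation tests gave p = 0.2 for mt-Tf, mt-Tv and mt-Ti and p = 0.3 for mt-Tl1. With 3 mice against 3, no such test can reach 0.05. All 6 log2 fold changes stayed negative when each mouse was left out in turn, and over all 19 alternative fits the smallest adjusted p was 0.418, for mt-Tf and mt-Tm in the edgeR fit without wild-type male 1, and the largest was 1.

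**Figure D2:**
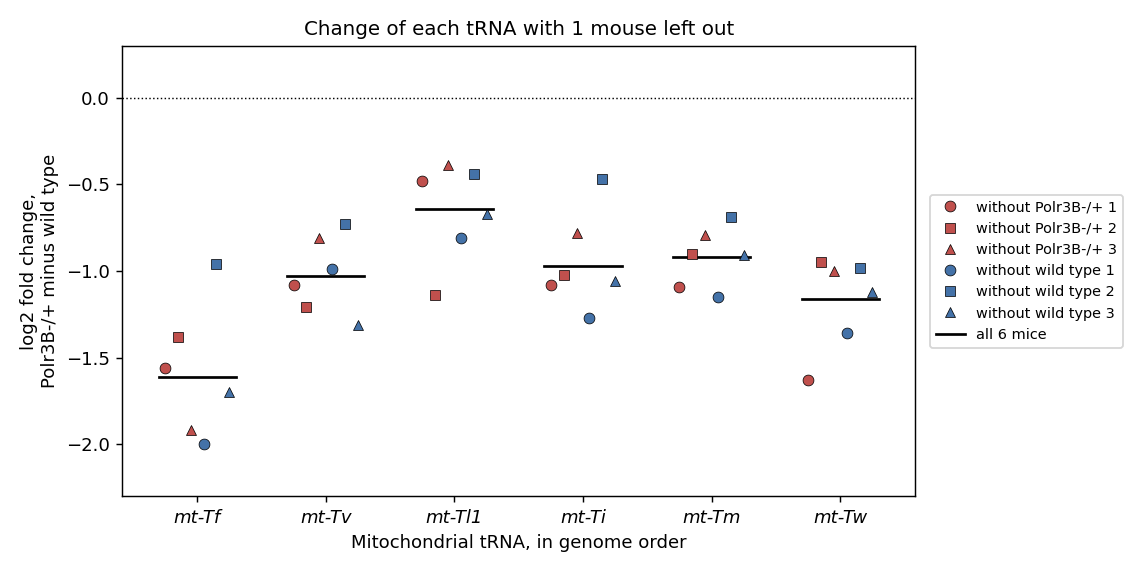
Log2 fold change of each tRNA, Polr3B-/+ minus wild type, from the edgeR fit with all 6 mice (black bar) and from the 6 fits that each leave out 1 mouse (points, coloured by the genotype of the mouse left out). The points run from -2.0 to -0.39, all below 0, and the value nearest 0 is reached without wild-type male 2 for mt-Tf, mt-Tv, mt-Ti and mt-Tm.

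Compared per base of gene length, the counts of the 6 tRNAs stood at unequal levels. How completely each tRNA was demethylated and captured in the libraries was not tested. The order is therefore one of counts, not of the amounts of tRNA in the tissue. mt-Tv and mt-Ti were the highest, with geometric means over the 6 mice of 199 and 194 CPM per base, and ranked the first and the second among all 22 mitochondrial tRNAs. mt-Tf followed with 66.6 CPM per base, then mt-Tm with 22.4 and mt-Tl1 with 20.5, and mt-Tw was the lowest with 10, at rank 21 of 22. mt-Tv was 19.8-fold above mt-Tw. Within each mouse, mt-Ti exceeded mt-Tf, mt-Tf exceeded mt-Tm and mt-Tl1 exceeded mt-Tw in 6 of 6 mice, with mean ratios per base of 2.91, 2.97 and 2.04. These pairs are neighbours in the order of levels, not on the genome, and since that order was made from the same 6 mice the ratios are given as a description without a test.

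For the other 2 pairs of neighbours in this order the mean ratio was smaller than its spread over mice. mt-Tv was above mt-Ti in 2 of 6 mice, with a mean log2 ratio of 0.033 ± 0.53 (SD, n = 6). mt-Tm was above mt-Tl1 in 5 of 6 mice, with a mean log2 ratio of 0.13 ± 0.47 (SD, n = 6). The order does not follow the position of the genes.

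Shares within a library do not depend on how libraries are scaled. The 6 tRNAs together held 29.5%, 27.6% and 31.0% of the mitochondrial tRNA counts in Polr3B-/+ males and 35.8%, 25% and 23.7% in wild-type males. The wild-type mice thus enclosed the mutants on both sides, with means of 29.4 ± 1.72% and 28.2 ± 6.66% (SD, n = 3 each). For single tRNAs the widest 95% Wilson interval of a share spanned 0.346 percentage points, and such intervals take in counting error alone.

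mt-Ti had the steadiest share, with a 1.27-fold range over the 6 mice. It took 12.2%, 10.4% and 11.5% of the mitochondrial tRNA counts in the mutants and 9.82%, 9.58% and 9.73% in the wild type. All 3 mutants exceeded all 3 wild-type males, by a mean of 1.67 percentage points (exact two-sided permutation test, p = 0.1, adjusted p = 0.6 over the 6 tRNAs). The direction is opposite to that of its CPM, since the mitochondrial tRNAs as a whole were lower in the mutants.

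mt-Tv had an uneven share. It took 11.3%, 12% and 10.2% in the mutants and 19.5%, 8.64% and 6.59% in the wild type, so wild-type male 1 stood apart from the other 5 mice. Without that mouse the difference between genotypes turned from -0.401 to 3.56 percentage points. mt-Tf varied 3.36-fold over the 6 mice, from 1.82% in Polr3B-/+ male 2 to 6.12% in Polr3B-/+ male 3, and its wild-type shares of 3.13%, 4.69% and 4.42% lay in between.

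The remaining 3 tRNAs each held under 2% of the mitochondrial tRNA counts. The share of mt-Tl1 ran from 0.779% to 1.97%, that of mt-Tm from 0.871% to 1.45% and that of mt-Tw from 0.308% to 0.763%, with overlapping groups in each case. Over these 3 and mt-Tf and mt-Tv, the exact permutation p ran from 0.5 to 1 and the adjusted p was 1.

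**Figure D3:**
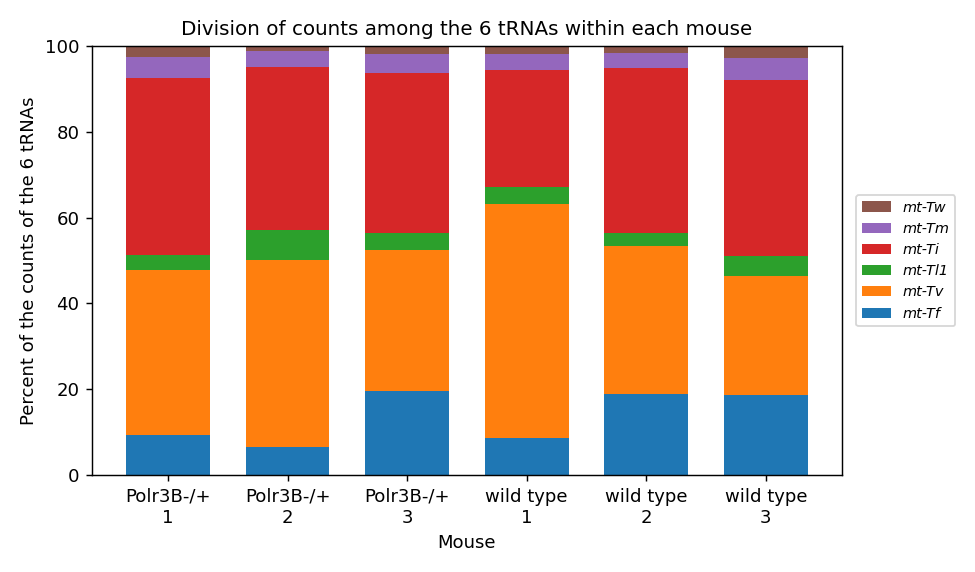
Percent of the summed counts of the 6 tRNAs that each tRNA takes, in each of the 6 mice. mt-Tv and mt-Ti take the most in every mouse, mt-Tv reaches 54.4% in wild-type male 1, and mt-Tf ranges from 6.6% in Polr3B-/+ male 2 to 19.7% in Polr3B-/+ male 3.

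The ratios between the 6 tRNAs within a mouse show which of them kept together. mt-Ti and mt-Tm, whose genes are separated by mt-Tq, did so most closely, with 8.38, 9.80 and 8.22 counts of mt-Ti per count of mt-Tm in the mutants and 7.41, 11 and 7.68 in the wild type, a 1.48-fold range. mt-Tf and mt-Tl1 did so least, with a 6.50-fold range. Across the 6 mice the log2 CPM of the pairs had Pearson r between 0.46 for mt-Tf with mt-Tl1 and 0.95 for mt-Ti with mt-Tm, given as a description of 6 libraries that differ in depth and scaling.

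The other 16 mitochondrial tRNAs were also lower in Polr3B-/+ males in each case. Of the 8 on the plus strand after mt-Co1, 8 were lower, 5 with an unadjusted p under 0.05 and 4 with groups apart, and their median log2 fold change was -1.29. Their values ran from -1.93 for mt-Tk to -0.04 for mt-Tg. Of the 8 on the opposite strand, 8 were lower, 3 with an unadjusted p under 0.05 and 2 with groups apart, and the median was -0.97, with values from -1.97 for mt-Ts1 to -0.57 for mt-Tq. Over all 560 tested transcripts, 17 (3.04%) were lower with such a p, and 23 (4.11%) had every mutant below every wild-type male. These shares include the mitochondrial tRNAs themselves. The other 16 made up 8 of the 17 and 6 of the 23, and the 6 before mt-Co1 made up 3 and 2. The range of the 6 tRNAs before mt-Co1, from -1.61 to -0.64, lay within the range of the other 16, and 0 of the 22 passed 10% FDR with edgeR.

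**Figure D4:**
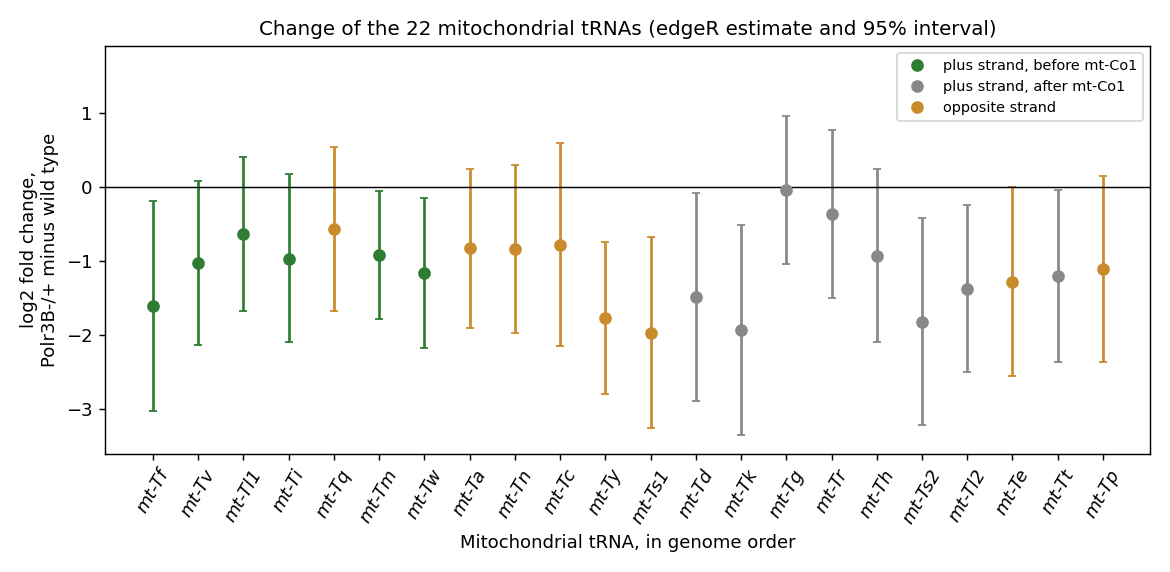
Log2 fold change, Polr3B-/+ minus wild type, of the 22 mitochondrial tRNAs in genome order, with 95% confidence intervals from edgeR (n = 3 mice each). All 22 estimates are below 0, and the intervals of the 6 tRNAs before mt-Co1 (green) overlap those of the plus-strand tRNAs after it (grey) and of the opposite strand (orange).

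mt-Tq, the glutamine tRNA that lies between mt-Ti and mt-Tm on the opposite strand, allows a comparison within 1 short stretch of the genome. It had 5175, 5107 and 3724 CPM in the mutants and 3328, 10271 and 7246 CPM in the wild type. Per count of mt-Tq, there were 2.26, 2.12 and 2.08 counts of mt-Ti in the mutants and 3.31, 3.04 and 2.34 in the wild type. For mt-Tm the ratios were 0.270, 0.217 and 0.254 and 0.447, 0.277 and 0.305. In both ratios every mutant was below every wild-type male. mt-Tq had the smallest log2 fold change in size of the 8 opposite-strand tRNAs, at -0.57. Against all 22 mitochondrial tRNAs, the share of mt-Ti went the other way, higher in every mutant by a mean of 1.67 percentage points. How often such ratios separate for other pairs was not tested. The groups overlapped in the corresponding ratio of mt-Tw to its opposite-strand neighbour mt-Ta, with 0.0889, 0.0419 and 0.0534 in the mutants and 0.103, 0.063 and 0.0899 in the wild type. They also overlapped in the ratio of the 6 tRNAs to the 8 of the opposite strand, with 0.743, 0.682 and 0.724 and 1.1, 0.689 and 0.639, and in that to the 8 plus-strand tRNAs after mt-Co1, with 0.961, 0.864 and 1.19 and 1.14, 0.643 and 0.607. These 5 ratios were chosen after the values had been seen and were not tested.

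The tRNAs that followed the mean log2 CPM of the 6 most closely over the mice were all plus-strand tRNAs after mt-Co1: mt-Tk and mt-Tt, each with a Pearson r of 0.98, and mt-Ts2 with 0.97, out of 16 candidates. Among the 319 other tested transcripts with a name, the closest were Gm26109, a small nucleolar RNA with r = 0.99, Gm25189, a small nuclear RNA with r = 0.97, and Gm22680, a small nucleolar RNA with r = 0.97. Gm26109 had 41.2, 41.1 and 35.0 CPM in the mutants and 47.8, 89.6 and 63.5 CPM in the wild type, with wild-type male 2 the highest and wild-type male 1 the lowest of its group. The r values rest on the same 6 libraries and describe likeness only.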

How the data were processed

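Short RNA of male duodenum was sequenced by the authors, trimmed with Cutadapt and assigned with Salmon to an index of all GRCm39 RNAs. The deposited values are Salmon's estimated counts per transcript shorter than 300 bases, as whole numbers without normalization. All 6 columns were used. Those not named wild type carry the short name of a fly mutant and were taken as the heterozygous males, the series' other group, numbered as in the table. Same-genotype pairs differed by far more than sampling noise (chi-square per degree of freedom 351 to 1800), so each mouse counted once.

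The test used R 4.3.3 and edgeR 4.0.16 (TMM, filterByExpr at a minimum count of 10, glmQLFit with legacy set to FALSE, glmQLFTest, no covariates). P values were adjusted over 560 transcripts and read at 10% FDR, the threshold of the study. A standard error is the size of the log2 change over the square root of F. DESeq2 1.42.0, limma 3.58.1, other scalings and filters, a library-size term and leaving out each mouse were alternatives. Log2 CPM used a prior count of 2. Single values were compared with exact permutation tests (scipy 1.17.1). The code was checked on simulated counts. Names, coordinates and sequences come from GENCODE M21 (GRCm38), joined by identifier without version, which matched 1136 of 1448 Ensembl identifiers. Similar sequences were searched with blastn 2.17.0.

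The named transcripts are all 6 members, mt-Tq, the extremes of the other mitochondrial tRNA lists, and the 3 most alike mitochondrial tRNAs and other transcripts by Pearson r. The members, lists and tests were chosen with earlier results of these data known.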

Additional observations from a re-analysis of the deposited data

How the results depend on the processing

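The 6 tRNAs kept a negative log2 fold change in all 19 alternative fits, and 0 of them passed 10% FDR in any, or 5% FDR with the main test. Their median ran from -1.21 to -0.71 over the fits that left out 1 mouse and from -1.01 to -0.73 over the others. DESeq2 called 3 short RNAs, none of them among the 6, both on 1614 transcripts and on the 557 that passed filterByExpr and had a p value. DESeq2 was not run with a mouse left out. The edgeR fits called 0 short RNAs with all mice and 0 to 0 with 1 mouse left out. The number of the 6 with an unadjusted p under 0.05 was 0 with library totals, 0 with totals taken over all but the top 10 transcripts, 1 with a term for library size, and 0 to 4 with 1 mouse left out. The 0 was without wild-type male 2, where 1.57% of all tested transcripts were lower with such a p, and the 4 without wild-type male 1, where 5.56% were, against 3.04% with all mice. With library totals this share was 0.714%, without the top 10 it was 1.25%, and with the library-size term 1.79%. The number with every mutant below every wild-type male was 0 with library totals, as for 0.893% of all tested transcripts, and 2 to 4 with 1 mouse left out, where the share of all tested transcripts rose from 4.11% to between 6.6% and 16.2%, the highest without wild-type male 1. Differences in share turned sign as follows, in percentage points. As a share of the 14 plus-strand tRNAs, mt-Tv gave 1.27 and mt-Tw 0.0288. As a share of all counts, mt-Tl1 gave -0.0644, mt-Ti -0.806 and mt-Tm -0.0864. With 1 mouse left out, mt-Tf ran from -1.78 to 0.366, mt-Tv from -2.89 to 3.56 and mt-Tw from -0.147 to 0.0806. The log2 ratio of mt-Tv to mt-Ti was -0.027 in heterozygous mice alone and ran from -0.16 to 0.15 with 1 mouse left out, while the other neighbour ratios kept their sign. The causes were not tested. No paired analysis was possible because the heterozygous columns carry no number that ties them to wild-type mice.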

Other observations

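The table also holds the 2 mitochondrial mRNAs whose annotated transcripts are shorter than 300 bases, mt-Atp8 and mt-Nd4l. The first encodes a subunit of ATP synthase and the second a subunit of complex I. Both lie after mt-Co1 on the plus strand, and they were looked at after the values of the tRNAs had been seen. Their estimates went the other way from those of the 6 tRNAs. mt-Atp8 had 211, 92.4 and 104 CPM in Polr3B-/+ males and 111, 42.6 and 84.8 CPM in wild-type males, with overlapping groups and an edgeR log2 estimate of 0.78 (adjusted p = 0.999, standard error 0.48). For mt-Nd4l, 58.7, 38.6 and 50.9 CPM were found in the mutants and 32.3, 4.48 and 40.3 CPM in the wild type, also with overlap, and the edgeR log2 estimate was 0.95 (adjusted p = 0.999, standard error 0.70).

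Within each library, which leaves the scaling aside, there were 7.42, 3.22 and 5.0 counts of mt-Atp8 per 1000 counts of the 6 tRNAs in the mutants and 2.76, 0.523 and 2.05 in the wild type. The corresponding values for mt-Nd4l were 2.07, 1.34 and 2.44 in the mutants and 0.802, 0.055 and 0.972 in the wild type. In both, all 3 mutants exceeded all 3 wild-type males. The divisor contributes to this. The summed TMM-scaled CPM of the 6 tRNAs was 28390, 28720 and 20840 in the mutants and 40240, 81450 and 41430 in the wild type. These groups were apart, as for 4.11% of single tested transcripts, but overlapped as a percent of all counts. How many other transcripts would separate when divided by the 6 tRNAs was not tested. The annotated transcripts, of 204 and 297 bases, are longer than the RNA that was selected for. Counts from whole mRNAs and from pieces of them cannot be told apart here. The values are therefore not read as levels of whole mRNAs. The part of the selection and of RNA breakdown in these ratios was not tested. The mt-Nd4l value of wild-type male 2 rests on 18 counts.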
